A study of Zea mays with 12 samples.

Results

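The genes described here are those annotated to the chloroplast in RNA sequencing of whole maize kernels. They were chosen as the genes of the deposited expression table whose gene ontology (GO) annotation holds the exact term chloroplast, with the starch synthase gene *Zm00001d000002* left out, and 49 of the 720 genes in the table were members. The rule itself uses no expression value, but it was set with earlier results of these data known. The table analysed here covers a part of the genome, and its last line ends inside an annotation cell.

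Kernels were compared between *smk7a*, a recessive small-kernel mutant from a chemically mutagenised B73 population, and its wild type (WT). Both kinds of kernel were picked by phenotype from the same segregating ears, since homozygous mutants do not grow into normal plants, so *smk7a* is a single mutant line. As the mutation is recessive, kernels picked as WT can include heterozygotes, which the labels do not separate. The groups were *smk7a* at 20 days after pollination (DAP), WT at 20 DAP, *smk7a* at 12 DAP and WT at 12 DAP, with 3 biological replicates each and 12 samples in all. The values are FPKM, in which the fragments of a gene are divided by its transcript length and by the mapped fragments of the sample, so levels can be compared between genes on this length-corrected scale.

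The GO term chloroplast is separate from the term plastid, which 4 of the members also carry, and from amyloplast, which the study lists beside it. The annotation does not show which kind of plastid is meant in the kernel. In a developing kernel, the plastids of the endosperm mostly become amyloplasts, which store starch. Plastids are also where plant cells make fatty acids, several amino acids, including lysine, serine and the aromatic ones, and parts of the purine and riboflavin pathways, and they divide with a ring of tubulin-like proteins inherited from bacteria.

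The label was checked against the rest of the annotation. The deposited description names the chloroplast or plastid for 29 of the 49 members, 25 members carry at least 1 further plastid term, such as chloroplast stroma (9 members) or chloroplast thylakoid membrane (5), and 6 are also annotated to the mitochondrion. For a few members the description points elsewhere. *Zm00001d001935* is described as a cytoplasmic leucine--tRNA ligase, *Zm00001d000362* as a subunit of a nuclear RNA polymerase, and *Zm00001d000443*, a WEB family gene, also carries a term for meiotic recombination. The members are therefore called chloroplast-annotated genes, and where their proteins reside in the kernel was not measured.

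The total FPKM of the table ran between 4175 and 4525 in *smk7a* at 20 DAP, 2864 and 3257 in WT at 20 DAP, 5799.6 and 5853 in *smk7a* at 12 DAP, and 4261 and 4828 in WT at 12 DAP. WT replicate 3 was the lowest WT sample at 12 DAP. The table held 2 endosperm markers. *BETL4* (*Zm00001d000161*, basal endosperm transfer layer) lay between 67.5 and 90.0 FPKM in *smk7a* and between 252 and 271 FPKM in WT at 12 DAP. At 20 DAP it was at 54.7, 151 and 156 FPKM in *smk7a* and at 124, 88.0 and 132 FPKM in WT, where the genotypes overlapped and *smk7a* replicate 1 stood below the other samples. *Endosperm specific protein1* (*Zm00001d000418*) lay between 110.02 and 159 FPKM in *smk7a* and between 200.1 and 238 FPKM in WT at 12 DAP, and between 102 and 141 FPKM in *smk7a* and 158 and 171 FPKM in WT at 20 DAP. All its *smk7a* values lay under the WT values of the same stage, as those of *BETL4* did at 12 DAP. Their part in the differences below was not tested. In whole kernels, fewer cells of a type and less RNA per cell cannot be told apart.

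A large part of the chloroplast-annotated genes was hardly expressed, and where both shares are given they were close to those of the whole table. There were 10 members (20.4%) listed at 0 FPKM in all 12 samples, compared with 21.3% of the whole table, and 12 more stayed at or under 1 FPKM in every sample. The remaining 27 members exceeded 1 FPKM at least once, and 19 of them did so in all 12 samples (38.8% of the members, compared with 40.3% of the table). Among those always at 0 were a copy each of fatty acid desaturase 4 and NCED3, the peptidyl-prolyl isomerase FKBP17-2, a trigger factor-like protein of protein folding and both genes listed as MPT3, a phosphate carrier.

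The members at or under 1 FPKM throughout included genes known from leaf photosynthesis. The gene model described as the Rubisco large chain (*Zm00001d000279*) and phosphoribulokinase (*Zm00001d000164*), both of the Calvin cycle, did not exceed 0.0813 and 0.0577 FPKM. Whether this gene model stands for the Rubisco large chain at work in plastids was not checked, so its level says nothing on Rubisco. Protochlorophyllide reductase1 (*Zm00001d001820*), an enzyme of chlorophyll synthesis, reached at most 0.368 FPKM, in a 12 DAP *smk7a* replicate, and was listed at 0 in every WT replicate at 20 DAP. The other copy of NCED3 (*Zm00001d000095*), which cleaves carotenoids for abscisic acid synthesis, reached 0.496 FPKM. The remaining weak members peaked at 0.0562 FPKM for phospholipase A1-Ibeta2 (*Zm00001d000037*), 0.0459 for the isomerase CYP37 (*Zm00001d002062*), 0.344 for fatty acyl-CoA reductase 1 (*Zm00001d000107*), 0.302 for ACR12 (*Zm00001d000094*) and 0.773 for a protein kinase gene (*Zm00001d002129*). Of the 5 genes described as adenylate kinase 1, 4 were at or below 0.314 FPKM, and reads of such copies may be split uncertainly between them.

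The expressed members were led by genes of metabolism and transport and by a tRNA ligase described as cytoplasmic. In all 4 groups the leading 4 genes were pyruvate dehydrogenase E1 subunit beta (*Zm00001d000227*), of the complex that makes acetyl-CoA, D-3-phosphoglycerate dehydrogenase 3 (*Zm00001d002051*), which starts serine synthesis from a glycolytic intermediate, FATTY ACID EXPORT 2 (*Zm00001d002028*), of a family that carries fatty acids out of plastids in *Arabidopsis*, and the leucine--tRNA ligase. Pyruvate dehydrogenase led with 41.0 ± 1.44 FPKM in *smk7a* at 20 DAP, 34.8 ± 4.63 FPKM in WT at 20 DAP and 70.6 ± 14.6 FPKM in WT at 12 DAP (SD, n = 3 each). In *smk7a* at 12 DAP phosphoglycerate dehydrogenase led instead, with 104 ± 18.0 FPKM, followed by pyruvate dehydrogenase with 55.4 ± 5.42 FPKM (SD, n = 3 each). In *smk7a* at 12 DAP each of the leading 4 genes was apart from the next by more than their SDs. In *smk7a* at 20 DAP and in WT at 12 DAP the first 3 genes overlapped with their neighbours in mean ± SD, phosphoglycerate dehydrogenase at 39.3 ± 2.08 FPKM and 54.2 ± 17.1 FPKM and FATTY ACID EXPORT 2 at 35.6 ± 2.34 FPKM and 48.9 ± 7.20 FPKM (SD, n = 3 each). In WT at 20 DAP FATTY ACID EXPORT 2 at 22.5 ± 1.68 FPKM and phosphoglycerate dehydrogenase at 21.1 ± 3.13 FPKM overlapped (SD, n = 3 each). All members together took between 5.29% and 7.25% of the FPKM of the table in every sample.

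Each comparison was made with limma on log2(FPKM + 0.1) over all genes of the table that exceeded 1 FPKM in 3 or more of its samples. A gene was called changed where the adjusted p was under 0.05 and the change was more than 2-fold. Of the 49 members, 24 passed the filter in each comparison of 2 groups, and 25 in at least 1. The other 24 were not tested, so statements on the tested members do not cover the whole set. All fold changes given are of FPKM + 0.1, which makes those of genes with low FPKM too small.

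FPKM totals differed between the groups, and this bears on every direction given here. Over all genes tested, *smk7a* over WT had a median log2 fold change of 0.48 at 12 DAP and 0.53 at 20 DAP, and 20 over 12 DAP had -0.44 in *smk7a* and -0.55 in WT. The samples were also rescaled by the median of ratios, so that a typical gene of this table has the same level in each. These medians were then 0.03, -0.02, -0.04 and -0.03 in the same order. The rescaling used only genes of this part of the genome above 1 FPKM in every sample fitted, while FPKM are divided by all mapped fragments. Whether the groups differ in this way over the whole genome was not tested, so both scalings are given. A gene near the median of all genes has therefore changed no more than most of the table, whatever its sign.

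To see which chloroplast-annotated genes differed in the young mutant kernel, *smk7a* and WT were compared at 12 DAP. Of the 24 members tested, 3 were called (12.5%), 2 higher and 1 lower in *smk7a*, against 22.7% of all genes tested, of which 18.6% were higher and 4.11% lower. With the p threshold alone 6 members were higher and 3 lower, against 43.6% and 7.67% of all genes. The members had a median log2 fold change of 0.22, below the 0.48 of all genes tested, and 16 of the 24 were above 0. After rescaling 3 members were called (against 15.6%), 0 higher (against 7.67%) and 3 lower (against 7.95%), and the median of the members was -0.24. With the p threshold alone 2 members were then higher and 7 lower, against 60 and 61 of all 365 genes tested. The study's enrichment among downregulated genes at this stage used another test and more of the genome, so these counts do not bear on it.

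The gene called lower in *smk7a* at 12 DAP with either scaling was chloroplast protein synthesis2 (*Zm00001d000399*), whose other GO terms are ATP binding and protein refolding. It was at 3.40, 3.14 and 3.98 FPKM in *smk7a* and at 13.3, 14.7 and 6.80 FPKM in WT. The groups did not overlap, and WT replicate 3 lay between the *smk7a* values and the other WT replicates. The log2 fold change was -1.63 with an SE of 0.29 (limma, adjusted p = 0.00327), and -2.09 with median of ratios scaling.

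Another pair of genes was lower in every *smk7a* replicate than in every WT replicate, but less than 2-fold with the FPKM as deposited. *Zm00001d000123*, a Rossmann-fold protein gene with the terms plastoglobule and ubiquinone-6 biosynthetic process, was at 3.54, 4.46 and 4.07 FPKM in *smk7a* and at 8.02, 7.62 and 7.54 FPKM in WT, a log2 fold change of -0.93 with an SE of 0.14 (limma, adjusted p = 0.00173). FATTY ACID EXPORT 2 was at 29.8, 30.8 and 37.8 FPKM in *smk7a* and at 53.4, 52.7 and 40.6 FPKM in WT, which gave -0.57 with an SE of 0.17 (limma, adjusted p = 0.0229). Both were called lower with median of ratios scaling, at -1.39 and -1.04.

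The genes called higher in *smk7a* at 12 DAP are annotated to the plastid envelope and to the plastoglobule, a plastid lipid body. The OMP85 family gene *Zm00001d000311*, listed as OEP80 after an *Arabidopsis* barrel protein of the outer envelope, was at 6.57, 7.15 and 6.19 FPKM in *smk7a* and at 3.68, 3.31 and 2.50 FPKM in WT. Its log2 fold change was 1.06 with an SE of 0.18 (limma, adjusted p = 0.00264). Plastid-lipid-associated protein 13 (*Zm00001d001932*), of the fibrillin family that coats plastid lipid droplets, was at 5.73, 6.99 and 8.27 FPKM in *smk7a* and at 2.99, 3.41 and 3.88 FPKM in WT, which gave 1.001 with an SE of 0.18 (limma, adjusted p = 0.00380). Neither pair of groups overlapped.

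The threshold of 2-fold fell inside a cluster of similar values. Phosphoglycerate dehydrogenase, lumazine synthase (*Zm00001d002034*), of riboflavin synthesis, and photosynthetic electron transport3 (*Zm00001d002054*), listed as CCB4 after an *Arabidopsis* factor for assembly of the cytochrome b6f complex, each had a log2 fold change of 0.99 and were not called. Phosphoglycerate dehydrogenase was at 111, 84.1 and 118 FPKM in *smk7a* and at 65.2, 63.0 and 34.6 FPKM in WT (SE 0.26, adjusted p = 0.0162 from limma). Lumazine synthase was at 8.74, 8.52 and 9.92 FPKM in *smk7a* and at 4.68, 5.68 and 3.43 FPKM in WT (SE 0.20, adjusted p = 0.00531 from limma). All 3 genes were higher in each *smk7a* replicate than in any WT replicate. The 5 genes of this cluster had log2 fold changes between 0.51 and 0.60 with median of ratios scaling, and none was then called.

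The count of 3 called members rested on which replicates entered. It was 6 without *smk7a* replicate 1, 5 without *smk7a* replicate 2 and 2 without *smk7a* replicate 3, and 4, 6 and 2 without WT replicate 1, 2 or 3. Of all genes, 74 to 86 were called. Chloroplast protein synthesis2 was called in each of these 6 fits, with log2 fold changes from -1.97 to -1.42. Plastid-lipid-associated protein 13 lost its call without *smk7a* replicate 2 (log2 fold change 0.99), *smk7a* replicate 3 (0.87) or WT replicate 1 (0.91), and the OMP85 family gene without WT replicate 3 (0.91). FATTY ACID EXPORT 2 was no longer under the p threshold without *smk7a* replicate 1 or WT replicate 1 or 2, with an adjusted p of up to 0.0805 from limma.

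The comparison was repeated at 20 DAP. Of 24 members tested 1 was called, higher in *smk7a* (4.17%, against 15.8% of all genes tested and 14.3% called higher), and 0 were called lower (against 1.49%). With the p threshold alone 15 members were higher in *smk7a* (against 65.8% of all genes) and 0 lower (against 4.17%). An unadjusted p under 0.05 was found for 15 members, against 247 of all 336 genes tested. The members' median log2 fold change was 0.46, near the 0.53 of all genes. Rescaled, 0 members were called by limma (against 8.63%), and 8 had an unadjusted p under 0.05 (against 133 of the 336 genes). An adjusted p under 0.05 was left for 4 members, 1 higher and 3 lower, against 51 higher and 49 lower among the 336 genes. Of these 4, phosphoglycerate dehydrogenase was higher in *smk7a* (0.34), and pyruvate dehydrogenase (-0.32), *Zm00001d000228* (-0.26) and chloroplast protein synthesis2 (-0.78) were lower. With FPKM as deposited, pyruvate dehydrogenase had 0.24 (limma, adjusted p = 0.0865) and *Zm00001d000228* 0.30 (limma, adjusted p = 0.0403). Both were then higher in *smk7a* without overlap, so their direction depends on the scaling.

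The gene called at 20 DAP was the expressed copy of adenylate kinase 1 (*Zm00001d001885*), an enzyme that interconverts the adenine nucleotides. It was at 1.15, 1.98 and 2.27 FPKM in *smk7a* and at 0.618, 0.821 and 0.821 FPKM in WT, a log2 fold change of 1.11 (SE 0.29). At 12 DAP its values in *smk7a* (1.16, 2.74 and 2.97 FPKM) overlapped those in WT (0.919, 1.35 and 0.980 FPKM). At 20 DAP the gene passed the filter on low values through its 3 *smk7a* replicates alone, the group where it was high, so the call is a description and supports no difference. It was not tested when any 1 of the *smk7a* replicates at 20 DAP was left out, and without WT replicate 1 it was no longer called (log2 fold change 0.99). The count of called members was then 2 without *smk7a* replicate 1, 0 and 0 without *smk7a* replicate 2 or 3, and 0 without WT replicate 1. Of all genes, 45 to 64 were called when each replicate at 20 DAP was left out.

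The other differences at 20 DAP were smaller than 2-fold. The 6 tested genes of amino acid, nucleotide and vitamin synthesis, adenylate kinase 1 and lumazine synthase included, all had an adjusted p under 0.05 with *smk7a* higher, and the median of their log2 fold changes was 0.76. Over all genes tested 65.8% met this p threshold with *smk7a* higher and the median was 0.53, and adenylate kinase 1 had passed the filter through *smk7a* alone. With median of ratios scaling 1 of the 6 was higher with an adjusted p under 0.05, and their log2 fold changes lay between -0.24 and 0.60 with a median of 0.21. Phosphoglycerate dehydrogenase was at 36.9, 40.7 and 40.3 FPKM in *smk7a* and at 24.0, 17.8 and 21.6 FPKM in WT, which gave 0.90 with an SE of 0.12 (limma, adjusted p = 0.000540). *Zm00001d002003*, a phosphoribosylformylglycinamidine synthase of purine synthesis, was at 16.3, 17.1 and 15.7 FPKM in *smk7a* and at 9.81, 9.42 and 8.86 FPKM in WT, which gave 0.80 with an SE of 0.10 (limma, adjusted p = 0.000296). Neither gene overlapped between the groups. Diaminopimelate decarboxylase 2 (*Zm00001d000153*), the last enzyme of lysine synthesis, was at 3.58, 3.58 and 3.67 FPKM in *smk7a* and at 2.33, 2.17 and 2.001 FPKM in WT, without overlap, which gave 0.71 with an SE of 0.13 (limma, adjusted p = 0.00159). Shikimate kinase 1 (*Zm00001d002128*), of the pathway to the aromatic amino acids, had the lowest log2 fold change of the group, 0.32 with an SE of 0.12 (limma, adjusted p = 0.0455), and its groups overlapped.

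**Figure D1:**
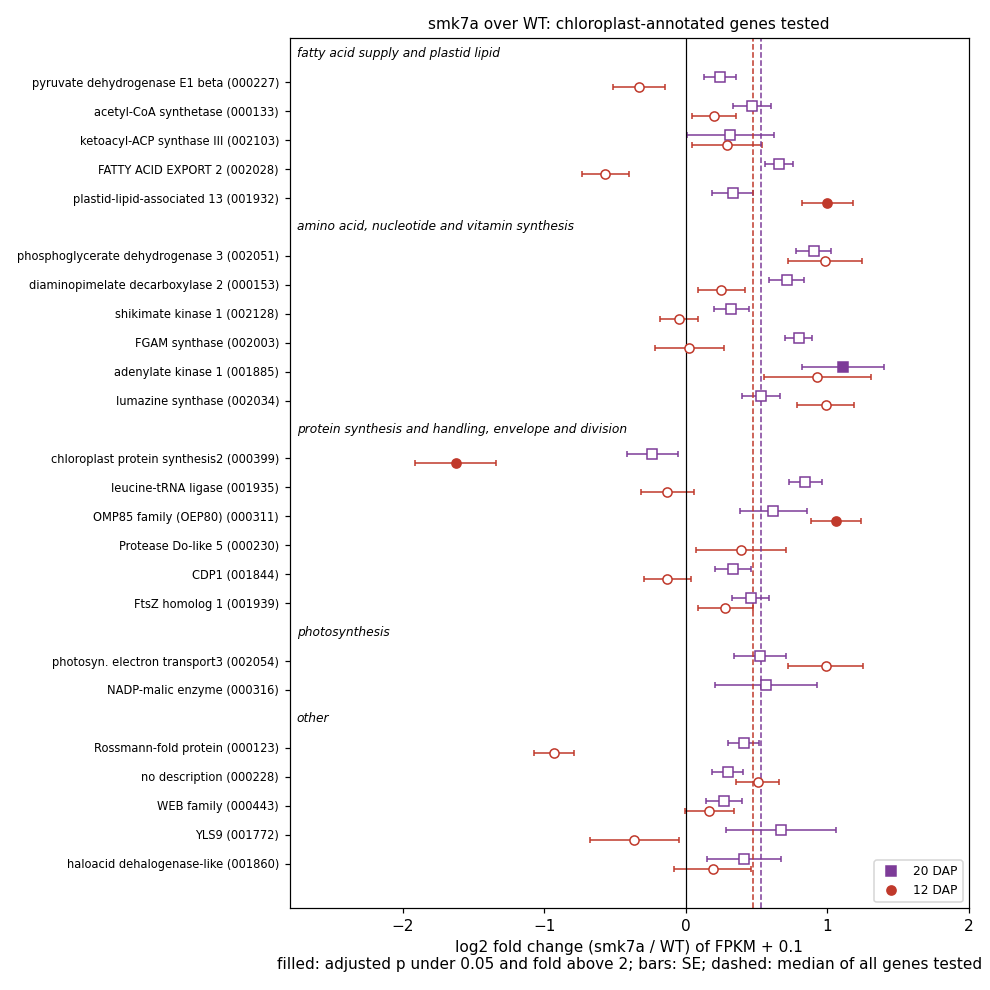
Log2 fold change (*smk7a* over WT, horizontal axis, on FPKM + 0.1) of 24 of the 25 chloroplast-annotated genes tested, one row a gene and grouped by role, at 20 DAP (squares) and 12 DAP (circles). Bars are limma's SE, filled symbols passed both thresholds, and dashed lines mark the medians of all genes tested, 0.53 at 20 DAP and 0.48 at 12 DAP. Most members lie left of the dashed line at 12 DAP.

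Both fold changes of a gene can be set against each other through the stage interaction, the log2 fold change at 20 DAP minus that at 12 DAP, fitted over all 12 samples. For 3 of the 25 members tested this difference was called, all 3 above 0 (12.0%, against 12% of all genes tested and 6.67% called above 0), and the same 3 were called with median of ratios scaling (against 12.3%). They were the 3 genes described as lower in *smk7a* at 12 DAP, and the fold change at 12 DAP is itself part of the interaction. The count was 3 to 5 when each sample was left out in turn, and that of all genes was 36 to 49.

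In *Zm00001d000123* the order of the genotypes was opposite at the 2 stages. At 20 DAP it was at 5.01, 4.99 and 4.88 FPKM in *smk7a* and at 3.51, 3.58 and 4.08 FPKM in WT, without overlap and with *smk7a* higher, a log2 fold change of 0.41 with an SE of 0.11 (limma, adjusted p = 0.0129). The interaction was 1.34 with an SE of 0.17 (limma, adjusted p = 0.000267). Rescaled by the median of ratios, the gene was not higher in *smk7a* at 20 DAP, at -0.14, while the interaction was 1.24.

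FATTY ACID EXPORT 2 followed the same course. At 20 DAP it was at 36.0, 37.8 and 33.1 FPKM in *smk7a* and at 20.6, 23.8 and 23.2 FPKM in WT, again without overlap, which gave 0.66 with an SE of 0.10 (limma, adjusted p = 0.000784), and 0.10 with median of ratios scaling. The interaction was 1.23 with an SE of 0.20 (limma, adjusted p = 0.00107).

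For chloroplast protein synthesis2 the values at 20 DAP were 3.06, 1.96 and 2.42 FPKM in *smk7a* and 3.27, 2.74 and 2.72 FPKM in WT. They overlapped, and all groups but WT at 12 DAP were below 4 FPKM. The interaction was 1.39 with an SE of 0.36 (limma, adjusted p = 0.0195), and its adjusted p in limma ranged from 0.000666 to 0.0464 when each sample was left out in turn. The leucine--tRNA ligase had an interaction of 0.97 with an SE of 0.23 (limma, adjusted p = 0.00998), below the threshold of 2-fold. It was at 28.05, 23.4 and 23.5 FPKM in *smk7a* and at 15.1, 14.0 and 12.4 FPKM in WT at 20 DAP. At 12 DAP the groups overlapped, with 22.6, 17.8 and 26.9 FPKM in *smk7a* and 25.9, 25.8 and 21.3 FPKM in WT.

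**Figure D2:**
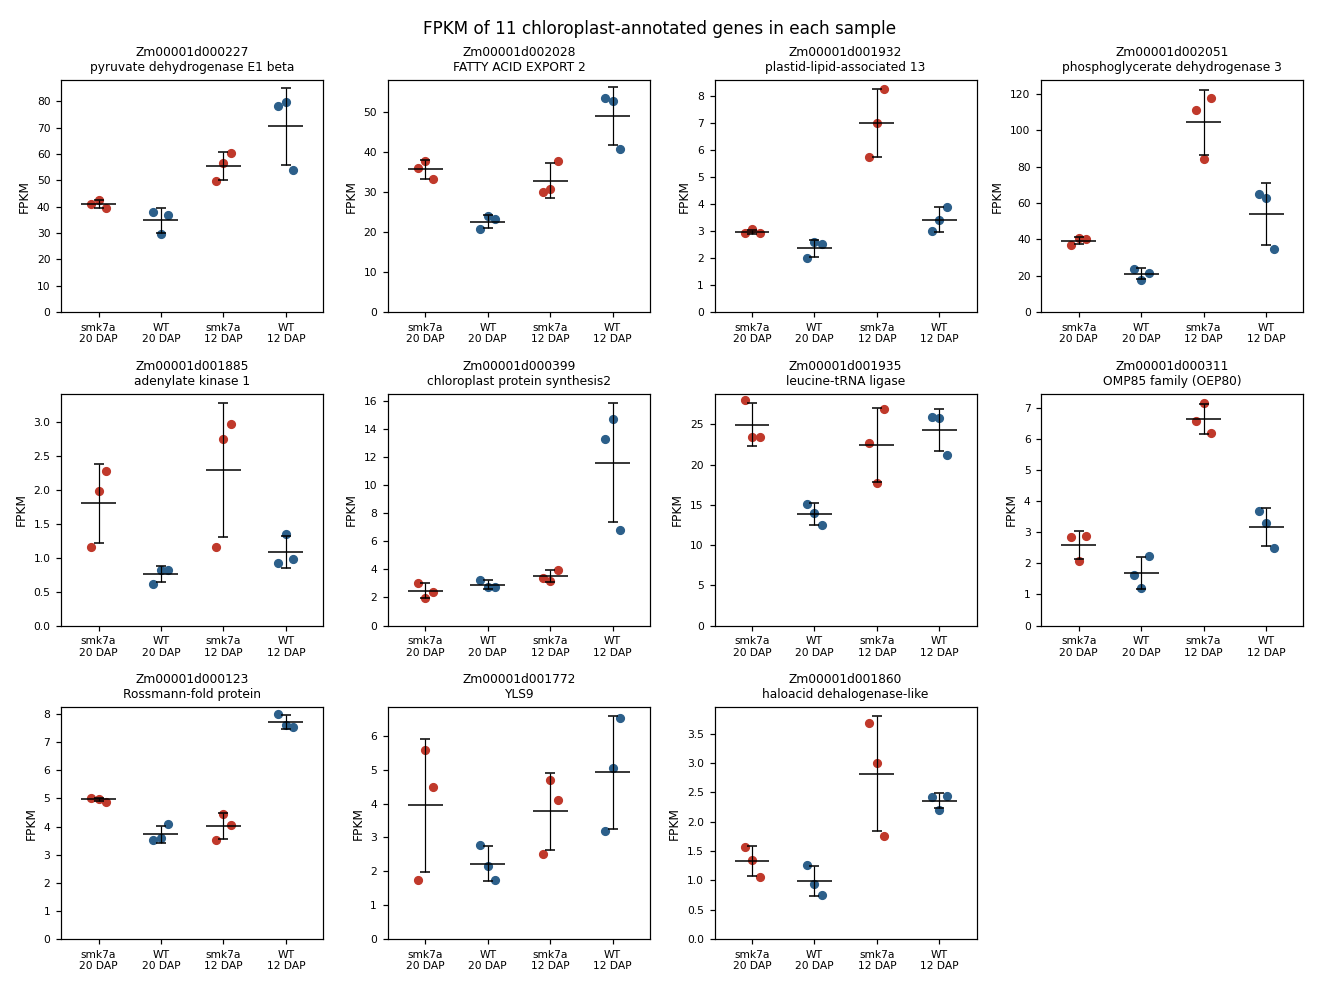
FPKM (vertical axis, starting at 0) of 10 of the 11 chloroplast-annotated genes called in at least 1 comparison and of the leucine--tRNA ligase, in *smk7a* (red) and WT (blue) at 20 DAP and then at 12 DAP. Points are the 3 replicates, and lines and bars are their mean and SD. For chloroplast protein synthesis2, WT at 12 DAP stands above the other groups, which lie below 4 FPKM.

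The stages were then compared within each genotype. In *smk7a* 4 of 24 members tested were called (16.7%, against 19.2% of all genes tested), 0 higher (against 3.02%) and 4 lower at 20 DAP (against 16.2%). With the p threshold alone 0 members were higher (against 5.49%) and 8 lower (against 47.3%). The median of the members was -0.39, that of all genes -0.44. With median of ratios scaling 1 member was called (against 12.4%). On that scale 6 members were higher and 5 lower with an adjusted p under 0.05, against 62 and 69 of all 364 genes tested.

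In WT 8 of 24 members tested were called (33.3%, against 17.7% of all genes tested), 0 higher (against 2.03%) and 8 lower at 20 DAP (against 15.7%). With the p threshold alone 0 members were higher (against 4.36%) and 15 lower (against 56.7%). The median of the members was -0.64, that of all genes -0.55. With median of ratios scaling 1 member was called (against 8.72%), chloroplast protein synthesis2 with -1.37, so the larger number rests on the FPKM as deposited. On that scale 2 members were higher and 6 lower with an adjusted p under 0.05, against 46 and 43 of all 344 genes tested.

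Phosphoglycerate dehydrogenase was called lower at 20 DAP in both genotypes. From the values given above, the log2 fold change (20 over 12 DAP) was -1.39 with an SE of 0.15 (limma, adjusted p = 0.000586) in *smk7a* and -1.31 with an SE of 0.23 (limma, adjusted p = 0.000946) in WT. Neither genotype had overlapping stages. With median of ratios scaling the values were -0.98 and -0.78, both with an adjusted p under 0.05 but below 2-fold.

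In *smk7a* the OMP85 family gene was at 2.85, 2.08 and 2.87 FPKM at 20 DAP, below all of its 12 DAP values, which gave -1.33 with an SE of 0.16 (limma, adjusted p = 0.000855). Plastid-lipid-associated protein 13 was at 2.92, 3.07 and 2.94 FPKM at 20 DAP in *smk7a*, also without overlap, which gave -1.19 with an SE of 0.15 (limma, adjusted p = 0.00112). Both had been called higher in *smk7a* than in WT at 12 DAP. At 20 DAP the OMP85 family gene was at 1.63, 1.21 and 2.23 FPKM in WT, overlapping *smk7a*, and plastid-lipid-associated protein 13 at 1.99, 2.57 and 2.51 FPKM in WT, without overlap. Their interactions were -0.44 (limma, adjusted p = 0.360) and -0.67 (limma, adjusted p = 0.0524), so a difference between the stages in the genotype effect was not shown.

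In WT the calls beside phosphoglycerate dehydrogenase included the 3 genes with a called interaction. Their log2 fold changes (20 over 12 DAP) were -1.89 (SE 0.25) for chloroplast protein synthesis2, -1.10 (SE 0.15) for FATTY ACID EXPORT 2 and -1.04 (SE 0.15) for *Zm00001d000123*. In *smk7a* the same genes had -0.50, 0.12 and 0.30 with FPKM as deposited, and none had an adjusted p under 0.05. With median of ratios scaling they had -1.37, -0.58 and -0.52 in WT, where only the first was called. In *smk7a* they then had -0.10, 0.53 and 0.70. FATTY ACID EXPORT 2 (limma, adjusted p = 0.0202) and *Zm00001d000123* (limma, adjusted p = 0.00652) were thus higher at 20 DAP in *smk7a* on that scale, below 2-fold.

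A further 3 genes called in WT were pyruvate dehydrogenase, the haloacid dehalogenase-like gene *Zm00001d001860* and *Zm00001d001772* (protein YLS9). Pyruvate dehydrogenase was at 38.1, 29.5 and 36.8 FPKM at 20 DAP in WT, against 78.2, 79.8 and 53.7 FPKM at 12 DAP, which gave -1.004 with an SE of 0.17 (limma, adjusted p = 0.000893), just past the threshold. In *smk7a* it was at 40.9, 42.4 and 39.6 FPKM at 20 DAP, against 49.6, 56.4 and 60.3 FPKM at 12 DAP, which gave -0.43 with an SE of 0.11 (limma, adjusted p = 0.0143), and the interaction was 0.57 (limma, adjusted p = 0.0865). The stages did not overlap in either genotype. Between the genotypes at 12 DAP the gene overlapped, with -0.33 (limma, adjusted p = 0.166). With median of ratios scaling it was lower in *smk7a*, at -0.80 (limma, adjusted p = 0.00593).

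*Zm00001d001860* was at 1.26, 0.936 and 0.752 FPKM at 20 DAP in WT, against 2.43, 2.21 and 2.43 FPKM at 12 DAP, which gave -1.21 with an SE of 0.25 (limma, adjusted p = 0.00263). In *smk7a* its values were 1.57, 1.35 and 1.07 FPKM at 20 DAP and 3.69, 3.01 and 1.76 FPKM at 12 DAP, also without overlap, which gave -0.99 with an SE of 0.30 (limma, adjusted p = 0.0284). *Zm00001d001772* was at 2.77, 2.15 and 1.74 FPKM at 20 DAP in WT, against 3.18, 5.06 and 6.52 FPKM at 12 DAP, which gave -1.08 with an SE of 0.25 (limma, adjusted p = 0.00440). In *smk7a* it had 1.75, 5.59 and 4.48 FPKM at 20 DAP and 2.51, 4.71 and 4.09 FPKM at 12 DAP, and the stages overlapped. Of the WT calls, that of pyruvate dehydrogenase was lost without replicate 2 at 20 DAP (log2 fold change -0.89) or replicate 1 or 2 at 12 DAP (-0.92 and -0.90). The call of *Zm00001d001772* was lost without replicate 3 at 20 DAP (log2 fold change -0.92) or at 12 DAP (-0.85), and that of *Zm00001d000123* fell just under the threshold, to a log2 fold change of -0.996, without replicate 1 at 20 DAP.

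**Figure D3:**
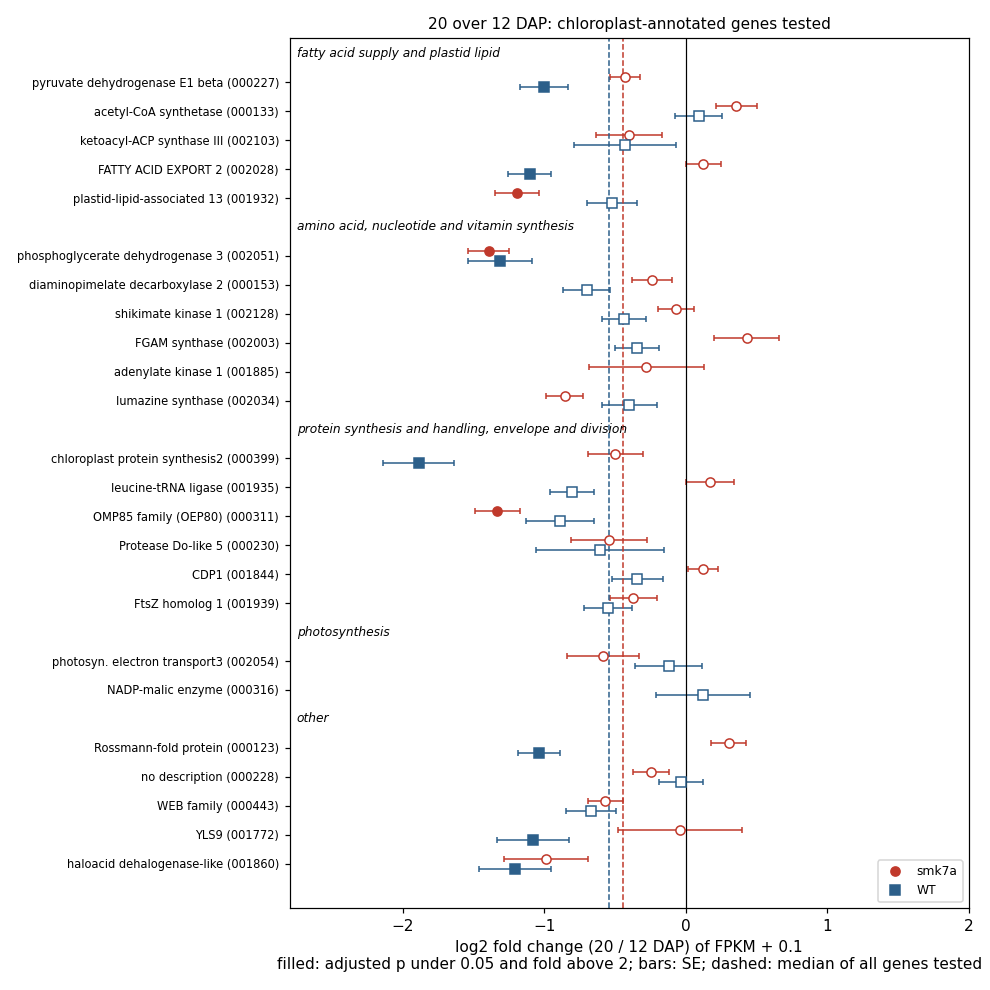
Log2 fold change (20 over 12 DAP, horizontal axis, on FPKM + 0.1) of 24 of the 25 chloroplast-annotated genes tested, one row a gene and grouped by role, in *smk7a* and WT. Bars are limma's SE, filled symbols passed both thresholds, and dashed lines mark the medians of all genes tested, -0.44 in *smk7a* and -0.55 in WT. All filled symbols lie below 0.

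The genes of plastid division, FtsZ and CDP1, were called in no comparison. FtsZ homolog 1 (*Zm00001d001939*), the tubulin-like protein of the division ring, was at 4.65, 5.30 and 5.79 FPKM in *smk7a* and at 4.06, 3.40 and 3.89 FPKM in WT at 20 DAP, which gave 0.46 with an SE of 0.13 (limma, adjusted p = 0.0141). At 12 DAP the FtsZ groups overlapped, with 0.28 (limma, adjusted p = 0.261). The division protein CDP1 (*Zm00001d001844*), of the inner envelope, lay between 5.49 and 10.03 FPKM in all 12 samples, with 0.33 (limma, adjusted p = 0.0453) at 20 DAP and -0.13 (limma, adjusted p = 0.541) at 12 DAP. These values are below the medians of all genes. With median of ratios scaling CDP1 was lower in *smk7a* at 12 DAP, at -0.60 (limma, adjusted p = 0.0165), and at -0.22 at 20 DAP (limma, adjusted p = 0.09998). Between the stages in *smk7a* it was then higher at 20 DAP, at 0.53 (limma, adjusted p = 0.00868). FtsZ was at -0.19 at 12 DAP and -0.09 at 20 DAP on that scale, without an adjusted p under 0.05.

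Of the genes of fatty acid supply, 3-oxoacyl-[acyl-carrier-protein] synthase III (*Zm00001d002103*), which starts each fatty acid chain, lay between 0.654 and 1.59 FPKM and had no adjusted p under 0.05 in limma. Acetyl-CoA synthetase (*Zm00001d000133*), which makes acetyl-CoA from acetate, was at 9.84, 11.4 and 10.9 FPKM in *smk7a* and at 8.88, 6.52 and 7.90 FPKM in WT at 20 DAP, without overlap, which gave 0.47 with an SE of 0.13 (limma, adjusted p = 0.0150). This was -0.09 with median of ratios scaling, and the groups overlapped at 12 DAP. On the rescaled values the gene was higher at 20 than at 12 DAP in both genotypes. The log2 fold change was 0.77 in *smk7a* (limma, adjusted p = 0.00726) and 0.61 in WT (limma, adjusted p = 0.00908). With FPKM as deposited the stages overlapped in both.

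*Zm00001d000228*, listed without a description and annotated to the chloroplast envelope and to kinase activity, was at 17.7, 13.4 and 15.3 FPKM in *smk7a* and at 10.2, 10.5 and 11.6 FPKM in WT at 12 DAP, which gave 0.51 with an SE of 0.15 (limma, adjusted p = 0.0254), close to the median of all genes. The WEB family gene lay between 5.11 and 11.2 FPKM, and Protease Do-like 5 (*Zm00001d000230*), of the thylakoid lumen, between 0.449 and 1.86 FPKM. The NADP-dependent malic enzyme gene *Zm00001d000316*, whose enzyme releases carbon dioxide from malate, did not pass the filter at 12 DAP. It was then at 0.285, 0.713 and 0.641 FPKM in *smk7a* and at 1.16, 0.756 and 1.56 FPKM in WT, without overlap. At 20 DAP it was at 0.963, 2.61 and 2.50 FPKM in *smk7a*, and the 3 WT values lay inside this range. Its interaction was 1.55 with an SE of 0.59 (limma, adjusted p = 0.0755).

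Among the 24 members that were not tested, those named here were picked because their genotypes did not overlap, mostly under 1 FPKM. At 12 DAP this held for 2 of the 24. Of all genes tested, 51.5% at 12 DAP and 67.9% at 20 DAP were higher in *smk7a* without overlap. The expressed copy of fatty acid desaturase 4 (*Zm00001d000016*), which desaturates plastid phosphatidylglycerol, was above WT in each *smk7a* replicate at both stages. It was at 0.642, 0.168 and 0.346 FPKM in *smk7a* at 20 DAP, where 2 WT replicates were listed at 0 and 1 at 0.0939 FPKM, and at 0.678, 0.530 and 1.82 FPKM in *smk7a* and 0.287, 0 and 0.0921 FPKM in WT at 12 DAP. The thioredoxin-like gene *Zm00001d001910* was at 0.724, 1.47 and 0.874 FPKM in *smk7a* and at 0.178, 0.537 and 0.608 FPKM in WT at 12 DAP, without overlap, and overlapped at 20 DAP. The protein kinase gene *Zm00001d002129* overlapped at 12 DAP. At 20 DAP it was at 0.548, 0.773 and 0.604 FPKM in *smk7a* and at 0.417, 0.155 and 0.415 FPKM in WT. Anthranilate synthase beta subunit 1 (*Zm00001d001823*), of tryptophan synthesis, was at 0.551, 0.616 and 0.802 FPKM in *smk7a* and at 0.215, 0.250 and 0.128 FPKM in WT at 20 DAP, and overlapped at 12 DAP. Its identifier and that of protochlorophyllide reductase1 fall between those of genes that the study places in the mapped interval of the mutation, and the order of identifiers along the genome was not checked here. For a single gene with 3 samples against 3, groups that do not overlap give p = 0.1 in a two-sided exact permutation test, the smallest this design allows.

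The 3 *smk7a* values lay outside the WT range for 9 of the 24 tested members at 12 DAP, 6 higher and 3 lower (against 51.5% of all genes tested higher and 9.04% lower). At 20 DAP this held for 15 members higher and 0 lower (against 67.9% and 5.36%). The 20 DAP values lay outside the 12 DAP range for 14 members in *smk7a*, 2 higher and 12 lower (against 8.79% and 54.1%), and for 16 members in WT, 0 higher and 16 lower (against 4.65% and 63.1%).

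The chloroplast-annotated genes were set beside lists of like annotation, as a description. At 12 DAP their median log2 fold change of 0.22 stood below that of 19 tested genes with other plastid terms (0.37), of 9 genes with chloroplast or plastid in their description (0.37), of 8 genes of the mitochondrion (0.53) and of 61 genes of the nucleus (0.56). With median of ratios scaling the medians were -0.24 for the chloroplast-annotated genes, -0.10 for both other plastid lists, 0.07 for the mitochondrion and 0.10 for the nucleus. At 20 DAP the same lists had 0.46, 0.55, 0.43, 0.54 and 0.52 with FPKM as deposited. Some genes stand in more than 1 list, and the differences between lists were not tested.

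**Figure D4:**
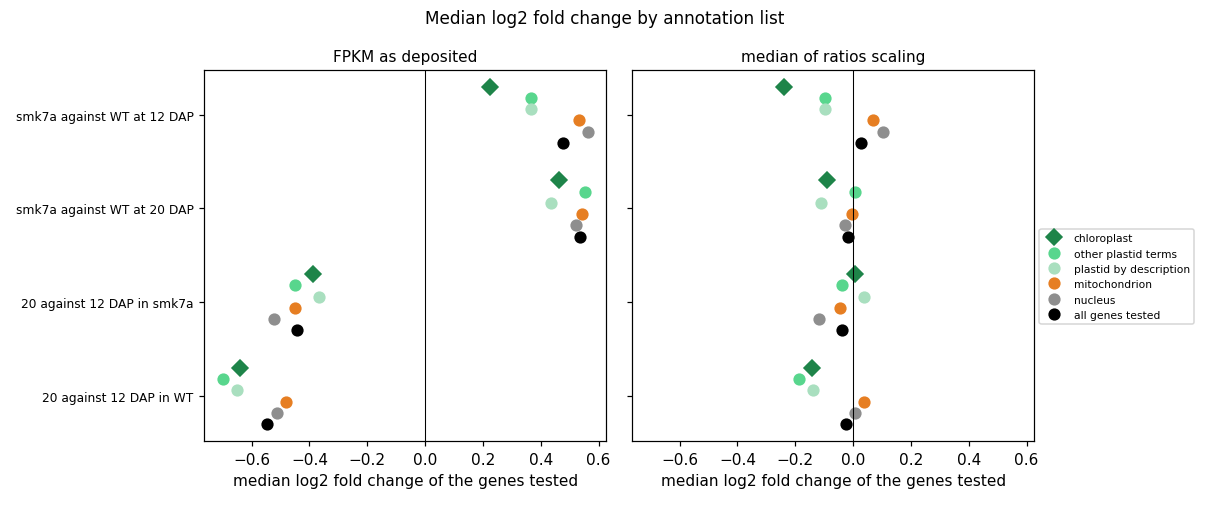
Median log2 fold change of the genes tested (horizontal axis) in the chloroplast-annotated list (diamonds) and in 5 other sets of the table, for the 4 comparisons of 2 groups, with FPKM as deposited (left) and with median of ratios scaling (right). The diamond for *smk7a* against WT at 12 DAP lies at 0.22 on the left and -0.24 on the right, below the other lists in both.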

How the data were processed

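Per the labels and the study's methods, the authors isolated total RNA from whole kernels, made stranded mRNA libraries, trimmed the reads (the submitters' processing notes name Trimmomatic), mapped them with HISAT2 to the B73 RefGen_V4 genome and kept perfectly matching reads. They deposited FPKM per gene and sample, and the program and versions are not given in the sources used here. FPKM hold no read counts, so the depth of a sample and the counting error of a gene are unknown, and errors are SDs between replicates or limma's SE. The smallest FPKM above 0 differed between samples (0.00293 to 0.0145) and whole reads were not recovered. Nothing in the labels says whether replicates were separate ears, so p-values measure the spread between these samples.

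Groups and replicate numbers came from the sample titles, and 0 value columns were left unused. Genes that exceeded 1 FPKM in 3 or more of the samples compared were fitted on log2(FPKM + 0.1) with limma 3.58.1 in R 4.3.3 (lmFit, eBayes with trend), with Benjamini-Hochberg adjustment over all genes tested. Each 2-group comparison used its 6 samples and the interaction all 12. The step was tested on simulated data. Tables were made with Python 3.11.15 and pandas 2.3.3, figures with matplotlib 3.10.9. Members, lists, roles and tests were chosen with earlier results of these data known. By rule, full values were given for members called with either scaling and for the 3 highest members of each group. The values of 1 member are not reported here. Values of further members were chosen after being seen. Of the identifiers, 0 matched the RefSeq gene table, whose assembly differs, so no coordinates or sequences are given.

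The alternatives were 2 other scalings, 2 pseudocounts, 3 filters on low FPKM, limma without trend or with sample weights, the replicate number as a block, 1 fit over 12 samples, no fold-change threshold, and leaving out each replicate.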

Additional observations from a re-analysis of the deposited data

Results flagged for a closer look

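For 4 chloroplast-annotated genes the genotype difference was not the same at both stages by limma's interaction term. The log2 fold change at 20 DAP minus that at 12 DAP was 1.34 for *Zm00001d000123*, 1.39 for chloroplast protein synthesis2 (*Zm00001d000399*), 0.97 for the leucine--tRNA ligase gene *Zm00001d001935* and 1.23 for FATTY ACID EXPORT 2 (*Zm00001d002028*). In *Zm00001d000123* and FATTY ACID EXPORT 2 all *smk7a* values were above all WT values at 20 DAP and below them at 12 DAP, with FPKM as deposited.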

How the results depend on the processing

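Scaling changed several counts. With median of ratios and upper quartile scaling, the called members were 0 and 0 for the genotypes at 20 DAP, 1 and 2 for the stages in *smk7a*, and 1 and 1 for the stages in WT. Over all genes median of ratios gave 29, 45 and 30 calls in these comparisons, and upper quartile 29 at 20 DAP and 31 in WT. Medians of the members, in the order median of ratios and upper quartile, were -0.24 and -0.23 at 12 DAP, -0.091 and -0.11 at 20 DAP, 0.0065 and -0.054 between the stages in *smk7a*, and -0.14 and -0.20 in WT. The median interaction with upper quartile scaling was 0.088.

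A pseudocount of 1 left 1 member called at 12 DAP, 0 at 20 DAP and 3 between the stages in WT, with 58, 33 and 33 of all genes. The member medians were then 0.37 at 20 DAP, -0.28 in *smk7a* and -0.50 in WT. A pseudocount of 0.01 gave 5 called members at 12 DAP, of 24 tested, and 88 of all 365 genes tested. Keeping genes above 0 in 1 sample gave medians of 0.12 at 12 DAP and -0.52 in WT. At 20 DAP it gave 3 called members of 36 tested (against 71 of 535 genes). A filter of 0.5 FPKM gave 2 of 28 there (against 63 of 382), and sample quality weights 2 of 24 (against 52 of 336). Without the fold-change threshold 9, 15, 8 and 15 members were called at 12 DAP, at 20 DAP, in *smk7a* and in WT, and 187, 235, 192 and 210 of all genes, with 79 for the interaction. The cause of these changes was not tested.

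Leaving out each replicate gave 2 to 6 called members at 12 DAP, 0 to 2 at 20 DAP, 4 to 5 in *smk7a*, 7 to 8 in WT and 3 to 5 for the interaction, 74 to 86, 45 to 64, 54 to 68, 47 to 66 and 36 to 49 of all genes, and member medians of 0.13 to 0.28, 0.40 to 0.57, -0.45 to -0.26, -0.78 to -0.56 and 0.20 to 0.40 in the same order. The 37 single-gene results followed under alternatives were picked for being called, or for an adjusted p under 0.05 with a larger change or an interaction. Of their 646 values, 573 kept direction and side of the threshold, 47 lost the call, 26 gained one and 0 turned direction. An uncalled result could keep its side and still lose its adjusted p under 0.05. Smaller changes did not enter this tally. Some turned with median of ratios scaling, such as *Zm00001d000123* (0.41 to -0.14) and acetyl-CoA synthetase (0.47 to -0.09) at 20 DAP. *Zm00001d000228* turned from 0.30 to -0.26 at 20 DAP, with an adjusted p under 0.05 on both scales. In the limma fit with the replicate number as a block, 3, 1, 4, 8 and 3 members were called in the same order. Of all genes, this fit called 83 at 12 DAP and 53 at 20 DAP. Same-numbered samples did not deviate together (mean correlation of their deviations between -0.111 and 0.0982), so the numbers were not taken to pair samples. FPKM without read counts give no limit of detection for the weak members.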
